A study of Mus musculus with 40 samples.

Results

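Plagl1, also called Zac1, encodes a zinc-finger transcription factor that restrains cell growth and acts on a network of imprinted genes. It is imprinted: the copy inherited from the mother carries methylation at a CpG-rich promoter and is silent, while the unmethylated copy from the father is expressed. DNA from a tissue holds both copies, so the methylation level at such a promoter mixes a methylated and an unmethylated copy.

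Methylation was measured at this promoter by bisulfite amplicon sequencing of liver DNA from male C57BL/6 mice (C57BL/6J in the study's methods) aged 9 weeks. Bisulfite converts unmethylated cytosine and leaves methylated cytosine, so the level at a CpG is the percent of reads that kept the cytosine. All the rows of the deposited table between positions 12810372 and 12810570 of chromosome 10 were taken, which gave 17 CpGs of the 300 in the series, and all 17 were among the 253 CpGs with enough animals to be tested. The dams were fed a low fat (LF) or high fat (HF) diet, in both of which coconut oil was the main fat, from weaning until their pups were weaned, and the male pups of a cage were divided between the LF and HF diets. In the group names the first letter is the diet of the dam and the second that after weaning: LL had 10 animals, HL 9, LH 10 and HH 10. HL replicate 1 was not analysed here. The 4 groups shared strain, sex, age and tissue and carried no genetic change, and the labels did not say which animals shared a litter or a dam. The main tests below treat each animal as independent, although the maternal diet was given to dams.

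The amplicon spanned 250 bases of the forward strand in mouse build mm9 (NCBIM37), chr10:12810348-12810597. It is shown because all 17 measured CpGs lie in it. The capitals mark the CpGs, and the primers lie at both ends on sequence without a CpG.
Plagl1 amplicon: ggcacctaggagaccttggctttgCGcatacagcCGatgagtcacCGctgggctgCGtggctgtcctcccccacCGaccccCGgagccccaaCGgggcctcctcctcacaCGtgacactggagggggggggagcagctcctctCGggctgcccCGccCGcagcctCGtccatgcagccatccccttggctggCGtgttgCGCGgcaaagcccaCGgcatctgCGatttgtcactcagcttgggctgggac
Forward primer: ggtatttaggagattttggttttg
Reverse primer: atcccaacccaaactaaataacaa

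The GC content of the amplicon was 68.4%. Neighbouring CpGs lay 2 to 33 bases apart. In the GENCODE M1 annotation Plagl1 (ENSMUSG00000019817.11) lies on the forward strand from 12810497 to 12851500. Plagl1_1 to Plagl1_9 lay upstream of the gene start, from 125 to 6 bases before it. Plagl1_10 to Plagl1_17 lay 4 to 73 bases past the start, in the first exon of non-coding transcripts of the gene. All 17 CpGs were upstream of the first protein-coding transcript, which starts at 12810594. The RefSeq start, placed on the build by its promoter sequence, was at 12810638, so the CpGs lay 266 to 68 bases before it.

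ZFP57, a zinc-finger protein that keeps methylation at imprinted regions, is known to bind the letters TGCCGC when their CpG is methylated. On both strands the amplicon held 1 copy, on the reverse strand at 12810548 to 12810553, and its CpG is Plagl1_15. It is printed here as read on the forward strand, with the motif in capitals.
Site around Plagl1_15, chr10:12810536-12810565: ctggcgtgttgcGCGGCAaagcccacggca
Of 32851 promoter windows of the same length from RefSeq, 8.7% held the motif. At least 17 CpGs were found in 23.5% of these windows, whose median was 6. Binding was not measured, and the match is a description of the letters only.

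Over all animals the locus mean, the mean of the CpGs with a value in an animal, was 51.2% ± 4.09 (SD, n = 39). Single CpGs had means from 48.3% at Plagl1_5 to 52.9% at Plagl1_14. At Plagl1_5, the lowest, the animals ranged from 40.4% to 59.5% with a median of 47.9%. At Plagl1_14, the highest, they ranged from 41.7% to 61.8% with a median of 52.6%. Plagl1_14 was above Plagl1_5 in 36 of 38 animals, by 4.65 ± 3.21 points (SD). The pair was picked by its means in these same animals, and its ranges overlapped widely. Plagl1_5 was the lowest of the 17 CpGs in 14 of the 38 animals, and Plagl1_14 was the highest in 10. The full order of the CpGs thus varied between animals. Within an animal the highest and lowest of the 17 CpGs were 3.73 to 14.4 points apart (median 6.14).

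The CpGs of the exon were on average 1.78 ± 1.26 points (SD) above those upstream of the gene start, and were higher in 37 of 38 animals. The difference ranged from -0.13 points in HL replicate 5 to 6.57 points in HH replicate 2. The exonic CpGs lie nearer to the reverse primer, and the upstream ones other than Plagl1_9 lie nearer to the forward primer. Apart from Plagl1_9, position relative to the gene and the nearer primer therefore cannot be told apart. The group means of this difference were 1.57 points in LL, 1.59 in HL, 1.51 in LH and 2.41 in HH.

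**Figure D1:**
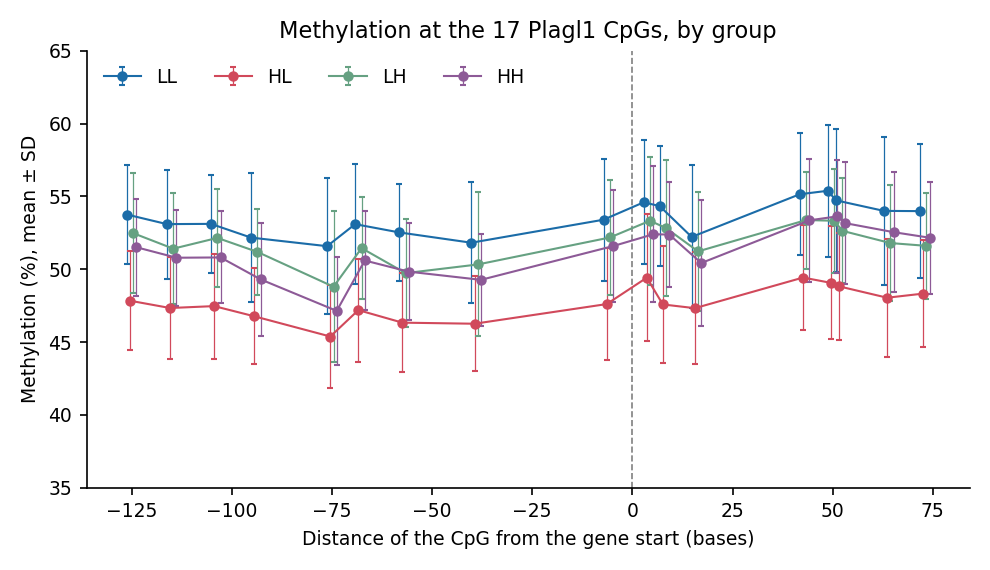
Mean methylation (%, y axis; the axis starts at 35) of the 4 groups at the 17 CpGs against the distance of each CpG from the gene start in bases (x axis; dashed line, the start). Bars are SD over 9 or 10 animals. HL is the lowest and LL the highest group at all 17 CpGs, and the bars of the groups overlap.

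Depth at Plagl1 was the third lowest of the 19 tested loci. Over the 15 CpGs other than Plagl1_8 and Plagl1_9 the median depth of an animal was 211 to 1997 reads (median 742, 38 animals). Plagl1_8 and Plagl1_9 had close to double this number in every animal with both values, 1.988 to 2.004 times, whereas the ratio at the other CpGs stayed between 0.965 and 1.004. These CpGs were the nearest to the centre of the amplicon, at 14.5 and 18.5 bases, and the next lay 28.5 bases from it. CpGs with 1.9 to 2.1 times the reads of their neighbours were found at 18 of the 22 loci with more than 1 CpG. Whether both mates of a pair were counted where they overlap was not tested. LH replicate 8 had values at these 2 CpGs alone, with a deposited count of 164 reads at each, where counts were close to double in the other animals. No value in the table had a deposited count under 100 reads. Its locus mean, 54.3%, therefore stands for 2 CpGs.

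**Figure D2:**
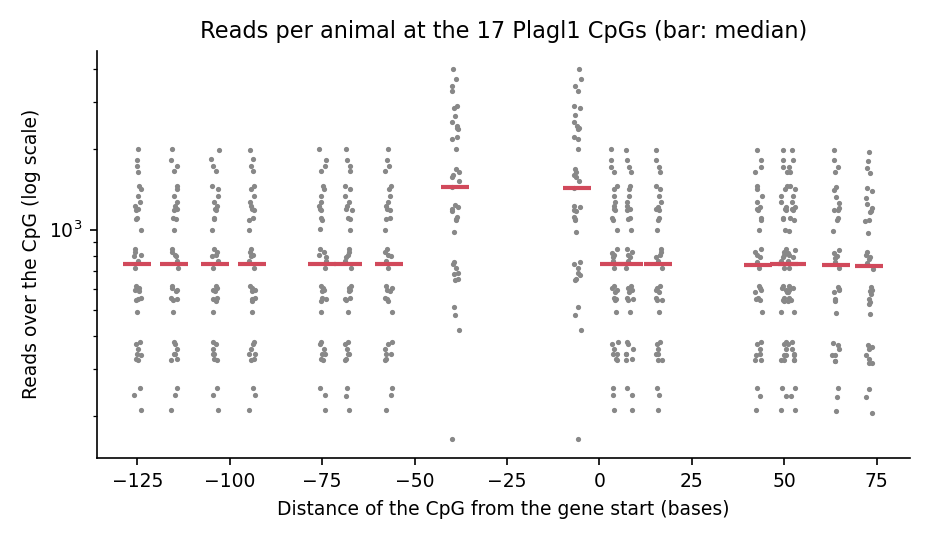
Reads per animal (points; y axis, log scale) at the 17 Plagl1 CpGs against distance from the gene start in bases (x axis), with the median as a red bar. The medians lie between 732.5 and 742.5 reads at 15 CpGs and at 1444 and 1438 at Plagl1_8 and Plagl1_9.

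At these depths the 95% Wilson interval of a single value was 3.10 to 15.1 points wide (median 6.96). It covers counting error only, since PCR copies are not separate molecules. The widths use the counts as deposited, and the narrowest lay at the double depth of Plagl1_8 and Plagl1_9. The variance between animals of a group was 2.66 to 4.62 times the variance of counting, with the reads of Plagl1_8 and Plagl1_9 counted once. The level was not seen to follow depth over 38 animals (Pearson r = -0.13, permutation p = 0.420, Spearman rho = -0.14, permutation p = 0.415). Without LL replicate 5 and HL replicate 9, the 2 animals farthest from the median depth, r was -0.10. Mean depth was 757.7 reads in LL, 993.4 in HL, 814.7 in LH and 810.5 in HH, and exact permutation p-values for the 6 pairs of groups ran from 0.346 to 0.982.

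The 17 CpGs moved together from animal to animal. Over 38 animals Pearson's r between pairs of CpGs ran from 0.62 (Plagl1_5 with Plagl1_8) to 0.97 (Plagl1_13 with Plagl1_15), with a median of 0.88 over 136 pairs. The first principal component held 88.2% of their variance and the second 3.41%. The CpGs share reads, and the animals share diet groups, so these values are given as a description. Counts of CpGs below are thus close to repeated readings of 1 quantity and are not separate evidence.

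**Figure D3:**
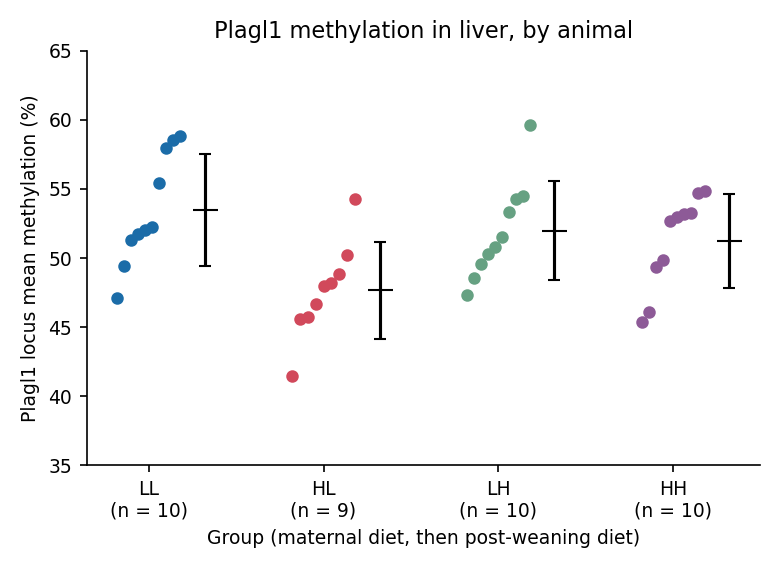
Plagl1 locus mean methylation (%, y axis; the axis starts at 35) of each animal (points) in the 4 groups (x axis), with mean ± SD beside them. LL has the highest mean, 53.5%, and HL the lowest, 47.7%, and the values of all groups overlap.

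The locus mean in LL ranged from 47.1% to 58.9% with a median of 52.1%, and its mean was 53.5% ± 4.04 (SD, n = 10). LH ranged from 47.3% to 59.6% with a median of 51.2%, and its mean was 52.0% ± 3.58 (SD, n = 10). HH ranged from 45.3% to 54.9% with a median of 52.8%, and its mean was 51.2% ± 3.41 (SD, n = 10). HL ranged from 41.4% to 54.3% with a median of 48.0%, and its mean was 47.7% ± 3.53 (SD, 9 animals). HL held the lowest animals, 4 of which were below every LL animal, and 4 LL animals were above every HL animal. By group mean the order from the lowest was HL, HH, LH and LL, and this order of means held at 12 of the 17 CpGs. HL had the lowest and LL the highest mean at all 17. By the medians above the order was instead HL, LH, LL and HH, with HH the highest.

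The comparison HL vs LL asked whether the diet of the dam left a difference in offspring that ate the LF diet. The locus mean was lower in HL, with a difference of -5.81 points (SE 1.74, 95% confidence interval -9.51 to -2.11, exact permutation p = 0.00435). After Benjamini-Hochberg adjustment over the 19 loci p was 0.0827, above the threshold of 0.05. Of the 9 HL animals, 8 lay below the LL median, and 5 lay within the LL range. Plagl1 had the smallest p of the 19 loci, and 0% of the loci passed the adjusted threshold. In the other comparisons its rank by p was 14 in HH vs LH, 9 in LH vs LL, 3 in HH vs HL, 4 in HH vs LL and 3 in LH vs HL. All 17 CpGs were lower in HL, with differences from -6.76 to -4.89 points, and all 17 had an unadjusted p under 0.05, against 14.6% of all 253 CpGs (11.1% lower in HL) and 8.47% of the 236 outside Plagl1. None of the 17 passed the adjusted threshold (background 0%), with exact permutation adjusted p-values from 0.111 to 0.263. The median difference was -5.79 points over the 17 CpGs and -0.04 over all 253. Of the 19 tested loci, 10 had means under 2% (0.69% to 1.57%), which leaves little room for a fall in points. Pck1 differed by more points than Plagl1 in HL vs LL, at -6.87 (SE 2.84, exact permutation p = 0.0174, adjusted p = 0.165). Pck1 also had its lowest group mean in HL, 21.4%, against 24.7% in HH, 28.2% in LH and 28.2% in LL.

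The smallest p in HL vs LL was at Plagl1_7, 57 bases upstream of the gene start. There HL ranged from 41.6% to 53.1% with a median of 45.5%, and LL ranged from 47.2% to 57.5% with a median of 51.7%. The groups overlapped, and 8 of 9 HL animals were under the LL median. The difference was -6.19 points (SE 1.55, exact permutation p = 0.00141, adjusted p = 0.111). The largest difference was at Plagl1_11, 8 bases past the start, where HL ranged from 40.1% to 54.8% around a median of 47.7% and LL ranged from 48.0% to 60.0% around a median of 53.7%. It was -6.76 points (SE 1.86, exact permutation p = 0.00227, adjusted p = 0.111).

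Single animals set the side of the threshold in HL vs LL. HL replicate 7, at 54.3%, was the highest of its group. Without it the difference was -6.64 points (exact permutation adjusted p = 0.0122) and 11 CpGs passed. LL replicate 6, at 47.1%, was the lowest of its group, and without it the difference was -6.51 points (exact permutation adjusted p = 0.0281) and 5 CpGs passed. Over leaving out each animal in turn the adjusted p ran from 0.0122 to 0.175. With the mean of each run of animal numbers as 1 value, 5 runs in HL and 4 in LL, the difference was -5.77 points (exact permutation p = 0.0159, the smallest this design can give, adjusted p = 0.302). A run is a set of animal numbers at most 3 apart, and the labels did not say that a run is a litter or a cage.

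**Figure D4:**
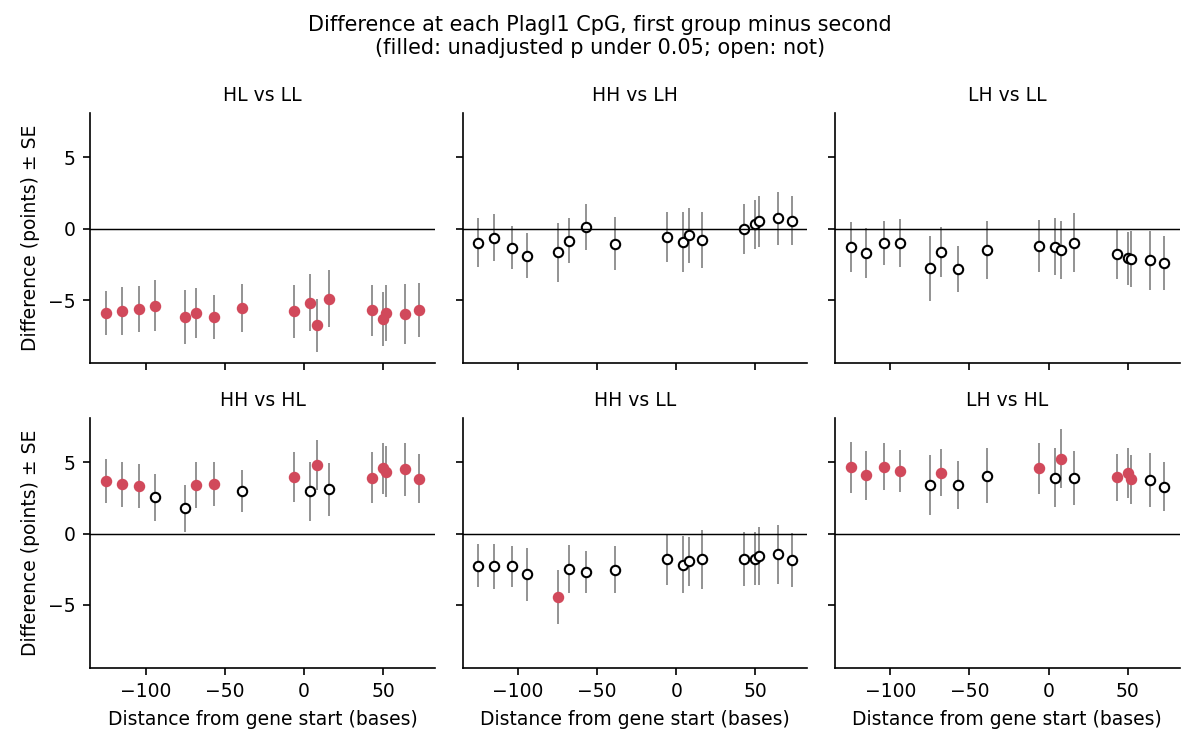
Difference in methylation (percentage points, y axis, bars SE) at the 17 CpGs against distance from the gene start (x axis), as first minus second group, for the 6 comparisons. Filled points have an unadjusted p under 0.05, which holds at 17 CpGs in HL vs LL, 12 in HH vs HL, 10 in LH vs HL, 1 in HH vs LL and 0 in the others. No point passes the adjusted threshold.

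HH vs LH put the same question for offspring that ate the HF diet. The locus mean differed by -0.74 points (SE 1.56, 95% confidence interval -4.05 to 2.52, Student's t-test p = 0.642, adjusted p = 0.871), and 8 of 10 HH animals lay within the LH range. Of the 17 CpGs, 12 were lower and 5 higher in HH, by -1.88 to 0.75 points, and 0 had an unadjusted p under 0.05, against 2.77% of the 253 CpGs. At the adjusted threshold the background was 0% of CpGs and of loci. The CpG with both the smallest p and the largest difference was Plagl1_4, 94 bases upstream of the start. HH ranged from 43.0% to 55.0% there with a median of 49.1%, and LH from 47.9% to 57.5% with a median of 50.5%. The difference of -1.88 points (SE 1.57, exact permutation p = 0.252, adjusted p = 0.859) was close to its standard error. Without LH replicate 3, the highest animal of the series at 59.6%, the locus difference was 0.11 points (exact permutation adjusted p = 0.972), of opposite sign.

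LH vs LL compared the diets after weaning where the dam had eaten the LF diet. The locus mean differed by -1.50 points (SE 1.71, 95% confidence interval -5.08 to 2.12, Student's t-test p = 0.392, adjusted p = 0.828), and 9 of 10 LH animals lay within the LL range. All 17 CpGs were lower in LH, with differences from -2.80 to -0.96 points, and 0 had an unadjusted p under 0.05, against 7.91% of the 253 CpGs, with 0% of CpGs and of loci past the adjusted threshold. Plagl1_7 had the smallest p and the largest difference, with LH from 44.6% to 57.5% around a median of 50.5%. The difference from LL was -2.80 points (SE 1.62, exact permutation p = 0.102, adjusted p = 0.714). Within the 2 runs of animal numbers that held both groups, the locus differences were 5.19 and -2.49 points, and the difference with runs as a block was 1.35 points in 10 animals (exact permutation p = 0.68, adjusted p = 0.94), opposite in sign to that over all animals. With LH replicate 3 or LL replicate 6 left out, 1 CpG had an unadjusted p under 0.05.

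HH vs HL compared the diets after weaning where the dam had eaten the HF diet, and it shares the HL animals with HL vs LL. The locus mean was 3.57 points higher in HH (SE 1.60, 95% confidence interval 0.19 to 6.92, exact permutation p = 0.0400), and the adjusted p was 0.253. Of the 19 loci, 5.26% passed the adjusted threshold, and Plagl1 was not among them. Of the 10 HH animals, 8 lay above the HL median and 8 within the HL range. All 17 CpGs were higher in HH, by 1.76 to 4.80 points, and 12 had an unadjusted p under 0.05, against 12.6% of all 253 CpGs (11.1% higher in HH). None of the 17 passed the adjusted threshold (background 0%). Plagl1_11 had the smallest p and the largest difference, with HH from 45.2% to 56.9% around a median of 53.1%. The difference was 4.80 points (SE 1.75, exact permutation p = 0.0143, adjusted p = 0.336).

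The count of 12 in HH vs HL depended on single animals. It was 2 to 7 without any 1 of HH replicates 2, 3, 5, 7, 9 and 10 or HL replicates 4, 5, 6, 9 and 10. It was 4 with the Wilcoxon rank-sum test or limma on log2 ratios and 1 with a quasi-binomial model. Within the 3 runs that held both groups the locus differences were -2.74, 5.42 and 2.93 points, and with runs as a block the difference was 3.26 points in 12 animals (exact permutation p = 0.25, adjusted p = 0.848).

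The 2 remaining pairs differ in both diets and serve to order the groups. In LH vs HL the locus mean was 4.31 points higher in LH (SE 1.63, 95% confidence interval 0.90 to 7.78, exact permutation p = 0.0152, adjusted p = 0.0961), with 9 of 10 LH animals above the HL median. All 17 CpGs were higher in LH and 10 had an unadjusted p under 0.05, against 13% of the 253 CpGs (8.7% higher in LH). None passed the adjusted threshold, against 0.395% of the 253 and 0% of the loci. The smallest p was at Plagl1_4, with 4.42 points (SE 1.47, exact permutation p = 0.00576, adjusted p = 0.190), and the largest difference was 5.24 points at Plagl1_11 (SE 2.05, exact permutation p = 0.0203, adjusted p = 0.257). Without HL replicate 7 the locus difference was 5.14 points (exact permutation adjusted p = 0.0356), 17 CpGs had an unadjusted p under 0.05 and 1 passed the adjusted threshold. With 10 animals, LH included LH replicate 8, and without Plagl1_8 and Plagl1_9, which leaves that animal out, the locus difference was 4.07 points (exact permutation adjusted p = 0.126).

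In HH vs LL the locus mean differed by -2.24 points (SE 1.67, 95% confidence interval -5.78 to 1.29, Student's t-test p = 0.197, adjusted p = 0.646). All 17 CpGs were lower in HH and 1 had an unadjusted p under 0.05, against 7.91% of the 253, with 0% of CpGs and 5.26% of loci past the adjusted threshold. This CpG was Plagl1_5, which is also the lowest of the 17 over all animals. HH ranged from 41.3% to 52.2% there with a median of 47.7%, LL ranged from 42.3% to 58.7% with a median of 51.5%, and the difference was -4.44 points (SE 1.88, Student's t-test p = 0.0297, adjusted p = 0.540). The count was 4 without LL replicate 6 and 0 without any 1 of LL replicates 2, 8 and 9 or HH replicates 6, 9 and 10. Neighbours in the order of means HL, HH, LH and LL, and the pairs farther apart in it, had differences that missed the adjusted threshold in all 6 comparisons.

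The exonic and upstream CpGs gave like differences in HL vs LL, -5.80 and -5.82 points. In HH vs HL they were 4.01 and 3.18 points, and in HH vs LH -0.01 and -1.24 points. These differences between the positions were not tested.

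Whether the effect of maternal diet depended on the post-weaning diet was tested by the interaction in a linear model of all 39 animals. The interaction at the locus mean was 5.07 points (SE 2.34, F test p = 0.0373). It had the smallest p of the 19 loci and an adjusted p of 0.634. At 11 of the 17 CpGs the interaction had an unadjusted p under 0.05, against 6.72% of the 253, and 0 passed the adjusted threshold (background 0% of CpGs and of loci). The smallest p was at Plagl1_7 (F test p = 0.00800, adjusted p = 0.660). The difference between HL vs LL and HH vs LH was therefore not past the threshold.

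Averaged over both post-weaning diets, offspring of HF dams lay below those of LF dams, with a maternal term of -3.21 points (SE 1.23, F test p = 0.0131, adjusted p = 0.125). This term joins unlike locus differences, -5.81 points in HL vs LL and -0.74 points in HH vs LH. At single Plagl1 CpGs the term ran from -3.93 to -2.55 points, with an unadjusted p under 0.05 at 13 of the 17 CpGs, against 11.9% of the 253, and 0 past the adjusted threshold (background 0% of CpGs and of loci). The post-weaning term at the Plagl1 locus mean was 0.97 points (SE 1.23, F test p = 0.436, adjusted p = 0.807). No CpG of the 17 had an unadjusted p under 0.05 for it, against 10.7% of the 253, with 1.19% of CpGs and 5.26% of loci past the adjusted threshold.

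Other imprinted loci of the panel were Peg3, a paternally expressed zinc-finger gene methylated on the maternal copy, and Igf2, a paternally expressed growth factor. Peg3 had a level of 46.8% ± 3.08 (SD, n = 39), and Plagl1 was above Peg3 in 34 of 39 animals, by 4.35 ± 4.09 points (SD). It was above in all 10 LH animals, in 9 of 10 LL, in 9 of 10 HH and in 6 of 9 HL animals. At Igf2 the mean was 3.50% ± 0.449 (SD) over the 28 animals with a value, and it was not tested. Plagl1 and Peg3 thus had intermediate levels in all groups, and Igf2 had a low one at the CpGs measured.

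Peg3 had group means of 47.6% in LL, 47.1% in LH, 47.1% in HH and 45.4% in HL. Its difference in HL vs LL was -2.16 points (SE 1.44, exact permutation p = 0.147, adjusted p = 0.490). The difference of Plagl1 minus Peg3 within an animal was 5.89 ± 4.69 points (SD) in LL and 2.24 ± 4.63 in HL. Between these groups it differed by -3.65 points (SE 2.14, exact permutation p = 0.108, adjusted over 4 comparisons p = 0.431). In HH vs LH, LH vs LL and HH vs HL it differed by -0.69, -1.02 and 1.94 points, with adjusted permutation p-values of 0.654, 0.654 and 0.603. A change of Plagl1 apart from Peg3 was not shown in any of the 4 comparisons.

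**Figure D5:**
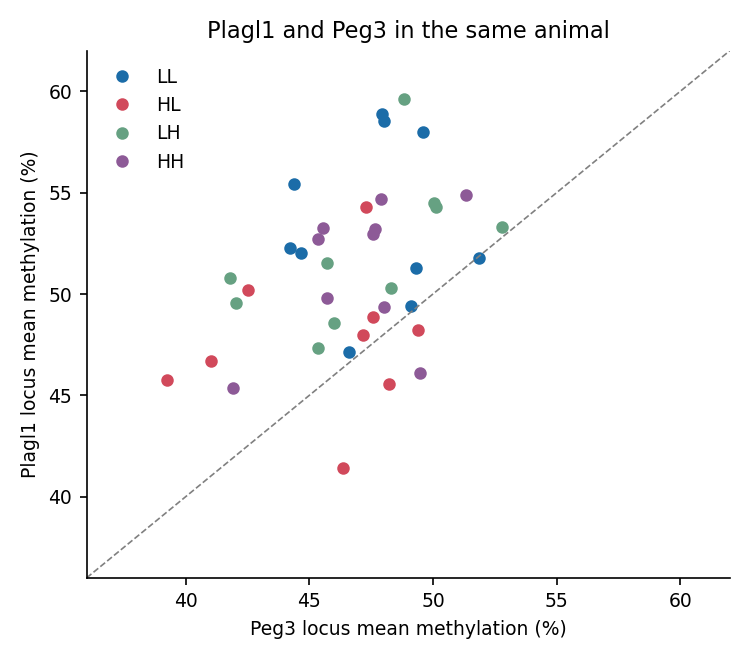
Plagl1 locus mean (%, y axis) against Peg3 locus mean (%, x axis) for each of the 39 animals, coloured by group; the dashed line marks equal levels and both axes start at 36. Of the animals, 34 lie above the line, and the groups overlap on both axes.

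With group means taken out, the loci whose level over animals followed Plagl1 most closely among the 18 others were Srebf2, Pck1 and Nr1i2. Srebf2, which encodes a transcription factor of cholesterol synthesis, had a Pearson r of 0.38 (permutation p = 0.0153, adjusted over 18 loci p = 0.230) and a Spearman rho of 0.28 (permutation p = 0.0841), over 39 animals. Without the 2 animals farthest from the median of the x axis r was 0.26. Pck1, the cytosolic enzyme of gluconeogenesis, had r = 0.36 (permutation p = 0.0255, adjusted p = 0.230) and rho = 0.36 (permutation p = 0.0271), and r was 0.34 without the 2 animals. Nr1i2, a nuclear receptor that senses foreign compounds, had r = 0.30 (permutation p = 0.0711, adjusted p = 0.320) and rho = 0.30 (permutation p = 0.0725) over 38 animals, and r was 0.24 without the 2 animals. Peg3 came next, with r = 0.29 (permutation p = 0.0689, adjusted p = 0.320) and rho = 0.23 (permutation p = 0.162), and r was 0.28 without the 2 animals. None passed the adjusted threshold.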

How the data were processed

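Liver DNA was treated with bisulfite, loci were amplified by PCR and barcoded per animal, and reads were processed with Bismark against mm9 per the submitters' processing notes, which give no version. The authors deposited counts of methylated reads and of total reads for each CpG and animal, and the methylated fraction, which matched the ratio of these counts within 5.6e-16. The lowest deposited read count above 0 was 100. Methylation was computed as 100 times methylated over all reads. A CpG was tested if 36 or more animals had 10 or more reads there. Reads summed over CpGs ranged from 1530126 (LH replicate 8) to 15531697 (LL replicate 5) per animal. Of the columns of values per animal, 0 were unused. The most similar pair of libraries was 0.807 points apart at the average CpG, so none was a duplicate.

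Groups with 10 values each were compared by Student's t-test, and others by exact permutation of the difference in group means (double the smaller tail). Confidence intervals of the locus differences came from inverting the permutation test, and a standard error is that of a difference of 2 means with unequal variances. Correlations and 10 against 10 differences of Plagl1 minus Peg3 used 100000 resamples. Tests were 2-sided, with Benjamini-Hochberg adjustment over the 253 CpGs or 19 loci within a comparison. Since the labels give no litters, p-values measure the spread between these animals. The maternal diet was given to dams, and littermates may be alike. The p-values of the maternal comparisons and of the maternal and interaction terms may therefore be too small, which was not tested. No alternative by runs of animal numbers was computed for the model terms. The members, lists and tests were chosen with earlier results of these data known. By rule, the text names the CpGs with the highest and lowest mean, those with the smallest p and the largest difference in each comparison, and the 3 loci most correlated with Plagl1, beside Peg3 and Igf2. Other CpGs named were chosen after their values were seen.

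Alternatives were exact permutation throughout, Wilcoxon rank sums, limma on the log2 ratio of methylated to unmethylated reads (1 added to each), minimum coverage set to 30 or 300 reads, quasi-binomial models, only CpGs measured in every animal, adjustment over all 6 comparisons together, pooled reads, runs of animal numbers, leaving out each animal and, for the model terms, 10000 permutations of residuals. Chosen after seeing the data were leaving out Plagl1_8 and Plagl1_9, and 300 reads in at least 5 animals a group. The tools were R 4.3.3 with limma 3.58.1, and Python 3.11.15 with scipy 1.17.1, numpy 2.4.6, pandas 2.3.3 and matplotlib 3.10.9, and the tests were tested on simulated data.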

Additional observations from a re-analysis of the deposited data

Results flagged for a closer look

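Of 84 groups of values, 3 held an animal far from the rest of its group, where chance would give about 4.2. In LH replicate 3 Plagl1_3 was at 60.3%, against at most 53.7% in the other LH animals, and Plagl1_6 was at 59.2%, against at most 53.3%. In HH replicate 2 the exonic CpGs were 6.57 points above the upstream ones, against at most 3.43 points in the other HH animals. This animal had the fewest reads at Plagl1 of those with all 17 CpGs (211), and its single values had 95% Wilson intervals 9.41 to 13.4 points wide. The narrowest of these lay at the double depth of Plagl1_8 and Plagl1_9.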

How the results depend on the processing

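For the locus means, model terms, Plagl1 minus Peg3, the relation to depth and the counts of CpGs past the adjusted threshold, 668 values were computed under the alternatives. Of these, 659 kept their direction and their side of the threshold or their count, 3 came past the threshold, 3 counts changed and 3 values reversed. Some values were fixed in advance, so the total is not a count of separate checks. A minimum of 30 reads changed nothing, because no value had fewer than 100. Exact permutation was already the main test wherever HL was compared. For Plagl1 minus Peg3, leaving out an animal of neither group could not change the difference. With runs of animal numbers the smallest possible exact permutation p was 0.0125 to 0.0286, so 1 locus alone could not pass after adjustment. The counts of CpGs with an unadjusted p under 0.05 were less stable, and 37 of their 177 values under the alternatives moved by over 1.5 times. Some of these moves were fixed in advance, since 2 alternatives kept only Plagl1_8 and Plagl1_9 and larger counts had to fall. No alternative other than leaving out an animal took a locus mean or a CpG past the adjusted threshold. Leaving out each animal in turn gave 0 to 11 CpGs and a locus difference of -6.64 to -5.03 points in HL vs LL, 0 to 1 CpGs and 3.46 to 5.14 points in LH vs HL, -1.26 to 0.11 points in HH vs LH, and -1.17 to 0.15 points for Plagl1 minus Peg3 in HH vs LH. The reversed sign in HH vs LH came without LH replicate 3, and in Plagl1 minus Peg3 without HH replicate 1. In LH vs LL the locus difference reversed to 1.35 points with runs of animal numbers as a block, which uses 10 of the 20 animals, and the cause was not tested. A coverage minimum of 300 reads and a value in all animals each kept only Plagl1_8 and Plagl1_9 of the 17 CpGs, since the other 15 had 300 reads in 35 animals and a value in 38 of 39. With 300 reads in at least 5 animals a group, 2 CpGs had an unadjusted p under 0.05 in HH vs HL. No paired analysis was possible because the replicate numbers used here follow accession order within a group and tie no animals together, so the only block was that by runs of animal numbers.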
